A study of Mus musculus with 41 samples.

Results

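Flt3, Kit and Csf1r are receptor tyrosine kinases of the class III family, and their transcripts were followed along B cell development in mouse, in 7 populations separated by flow cytometry. These 3 of the 18193 genes on the array were chosen by name, through all probe sets that the array annotation assigns to one of them alone. There were 6 such probe sets, 1 for Flt3, 2 for Kit and 3 for Csf1r, among 45037 probe sets without controls and 34945 with a single gene. Every array carried RNA from C57BL/6 mice with wild-type Pax5 that had received no treatment. Of the 41 arrays, 7 each came from the common lymphoid progenitor (CLP), fraction A and fraction B of the Hardy scheme, and 5 each from its fractions C, D, E and F. As background, the Hardy scheme runs from pre-pro-B cells (A) and pro-B cells (B) by way of cells at the change from pro-B to pre-B (C) and small pre-B cells (D) to immature (E) and mature recirculating B cells (F). The labels give no sex, age, tissue or sorting gate. Whether Flt3 or Kit protein served as a sorting marker is therefore not given in the sources used here, and for a gene used in the sort the level would follow from the gate. The labels also do not say whether arrays of a population came from separate animals, so p-values reflect how far these samples vary, and that variation may be technical.

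Class III receptor kinases sit in the cell membrane, bind a dimeric ligand with their immunoglobulin-like outer domains, and phosphorylate each other across the dimer. Flt3 binds Flt3 ligand and is known for driving the expansion of early lymphoid and dendritic progenitors. Kit binds stem cell factor, the product of Kitl, and is known for the survival of stem cells, mast cells and early lymphoid cells. Csf1r binds Csf1 and Il34 and is the defining growth factor receptor of monocytes and macrophages. In the B cell lineage, Pax5 is known to repress genes of other lineages, Flt3 and Csf1r among them.

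In these arrays all 3 receptors were far lower in mature B cells of fraction F than in the CLP, and the steps that were called differed between them. Several of these steps involve fraction A, whose arrays agreed least with each other and carried natural killer transcripts. Whether pairs of receptors changed by unequal amounts was tested only up to fraction C. Flt3 was highest in the CLP and was lower in B than in A and in C than in B. Kit was lower already in A, and no difference between A and B passed the test with all arrays. Without B arrays 1 and 4, Kit was called higher in B than in A. Csf1r did not differ between the CLP and A within its spread, was lower in B, and was lower again in D than in C. Values are scaled MAS5 signals as deposited, in which every array has the same trimmed mean. Differences are on the log2(signal + 32) scale, which understates the change of dim genes. A difference is called at an adjusted p under 0.05 (limma with Benjamini-Hochberg adjustment over 11951 genes). All 6 probe sets were tested, because each reached its array's median on at least 5 arrays. In bulk RNA, fewer cells with a transcript and less transcript per cell cannot be told apart.

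**Figure D1:**
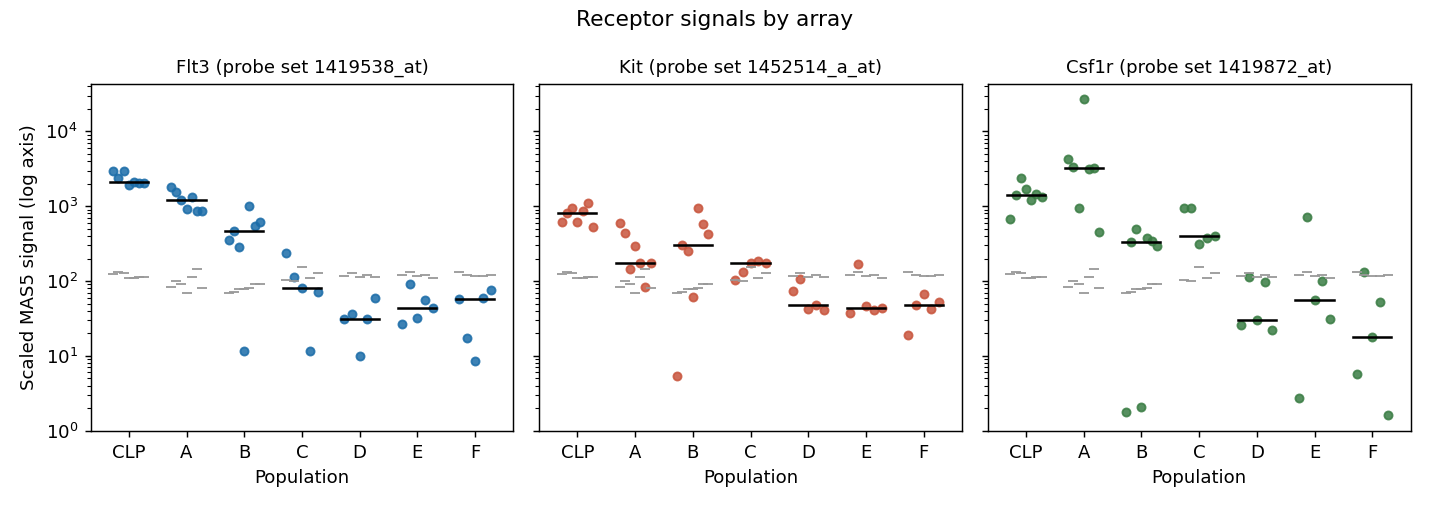
Scaled MAS5 signal (log axis) of the brightest probe set of Flt3, Kit and Csf1r on each of the 41 arrays, by population. Points are arrays, black bars are population medians and grey ticks are the median of all probe sets on the same array. Flt3 stood at 1904 to 2940.9 in the CLP and at 8.5 to 74.9 in F; signals of different genes are not comparable with each other.

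Flt3 and Kit both lie on chromosome 5, in the GRCm38.p6 annotation at 147330741 to 147400489 for Flt3 (minus strand) and at 75574987 to 75656722 for Kit (plus strand). The 250 bases upstream of the annotated start (RefSeq, GRCm38.p6) are shown for Flt3 and Kit, the pair on this chromosome; the promoter of Csf1r, which also fell from the CLP to F, is not shown here. Each runs 5′ to 3′ on the strand of its gene. Capitals mark matches to AGGAAG (the core of ETS sites, to which Spi1 belongs), CCCNNGGG (an Ebf1-type palindrome), CANNTG (the E-box of Tcf3) and GGGCGG (the GC box), searched on both strands.
Flt3, chr5:147400490-147400739: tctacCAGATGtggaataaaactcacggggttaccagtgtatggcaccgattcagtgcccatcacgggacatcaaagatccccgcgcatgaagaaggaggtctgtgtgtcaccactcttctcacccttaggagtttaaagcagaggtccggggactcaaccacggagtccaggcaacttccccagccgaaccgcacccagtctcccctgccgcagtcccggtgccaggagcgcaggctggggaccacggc
Kit, chr5:75574737-75574986: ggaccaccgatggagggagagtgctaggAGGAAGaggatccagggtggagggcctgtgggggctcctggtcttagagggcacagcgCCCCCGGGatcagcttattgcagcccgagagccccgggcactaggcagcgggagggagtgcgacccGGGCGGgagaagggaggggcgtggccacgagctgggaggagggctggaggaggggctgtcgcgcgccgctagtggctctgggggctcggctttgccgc
The Flt3 window held a single match, an E-box 245 bases before the start, a motif present in 66.2% of 32851 mouse promoter windows of this length. The Kit window held an AGGAAG match 222 bases before the start (29.5% of windows), a CCCNNGGG match 164 bases before it (11.8%) and a GC box 98 bases before it (32.7%). Neither window held TGTGGT, the core of RUNX sites, or AGATAA, the letters bound by GATA factors. Both also lacked AACTG, the core of MYB sites, and the TATA box TATAAA. The share of G and C was 59.2% for Flt3 and 70.8% for Kit, against a median of 52.4% over all windows. These matches describe letters in the reference and are not measured binding.

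Before the values, the array quality needs a place beside them. Array medians ranged from 69.1 to 153.1. Over all probe sets, each array of fraction A correlated with the mean of the other arrays of A at 0.844 to 0.959, against 0.935 to 0.987 for the same measure in the other populations. Gapdh probe sets at the 3′ and 5′ ends, whose ratio is higher in short RNA, gave ratios of 6.40 to 33.8 in A and of 3.56 to 10.8 elsewhere. The labelled identity was checked against marker lists. The summed signal of 10 B lineage markers was 3525 to 73045 in A, 36955 to 52511.9 in the CLP and 71185 to 99145.9 in B. The summed signal of 11 natural killer markers, led by Gzma, Ccl5 and Prf1, was 44704.5 to 86282.6 in A, whereas the CLP had 2165 to 3229.1, and 10 of the 11 were called higher in A, as were 11.5% of all genes. Fraction A as sorted here thus carried natural killer transcripts on every array, and each comparison with A is given with that measurement; its part in the receptor values was not tested. The arrays that correlated least with their groups were A arrays 4, 6 and 7 in fraction A and B arrays 1 and 4 in fraction B, and receptor results whose call they alter are given without them too.

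Flt3 was measured by 1 probe set. In the CLP its signal ran from 1904 through a median of 2099.9 to 2940.9 (mean 2336 ± 432, SD, n = 7). In fraction A it ran from 872.6 through 1198.9 to 1786.6 (1221 ± 358, SD, n = 7). Every array of A lay below every array of the CLP. The log2 difference of -0.95 ± 0.40 (SE) nevertheless missed the threshold (adjusted p = 0.0551). Its SE rests on 1 spread shared by all 7 populations. The SD of log2 Flt3 was 0.25 in the CLP, 0.41 in A and 1.47 in B. Of all genes tested, 37.1% were called in this comparison and 9.47% did not overlap. The difference passed without A array 1 (-1.05, adjusted p = 0.0412) or A array 2 (-1.01, adjusted p = 0.0488), and when only these 14 arrays entered the fit (adjusted p = 0.00439). Without A arrays 4, 6 and 7 it was -0.65 (adjusted p = 0.304).

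In fraction B, Flt3 ranged from 11.7 through a median of 462.9 to 1002.3 (468 ± 308, SD, n = 7). B array 4 accounted for the 11.7; the other 6 arrays lay between 284 and 1002.3. B overlapped A only through B array 5 (5.12% of genes did not overlap). Flt3 fell from A to B by 1.70 ± 0.40 on the log2 scale (adjusted p = 8.95e-04; 31.3% of genes called). Against the CLP it fell by 2.64 ± 0.40 without overlap (adjusted p = 2.22e-06; 27.9% of genes called, 13.4% without overlap). The ratio of mean signals, CLP over B, was 4.99. Without B arrays 1 and 4 the fall from A to B was smaller and was still called (-1.09, adjusted p = 0.00749).

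Flt3 fell further in fraction C, where the 5 arrays read 234.4, 114.8, 79.8, 11.7 and 71.1. The difference from B was -1.71 ± 0.43 (adjusted p = 0.00313; 22.9% of genes called). It was -2.22 without B array 4 and -1.36 without C array 4, and both were called. C arrays 1 and 2 were the only ones of C above their array's median, so from C onward the signal was dim. In D the arrays read 30.9, 36.4, 10.1, 31.2 and 59.1. In E they read 26.5, 90.1, 32.5, 55.5 and 44.1. In F they read 57.7, 17.4, 8.5, 60.1 and 74.9. No array of these last 3 populations reached its own median, and all 3 overlapped one another. The steps D vs C (-0.85, adjusted p = 0.202; 21.3% of genes called), E vs D (0.31, adjusted p = 0.882; 8.11%) and F vs E (-0.16, adjusted p = 1.00; 0.469%) did not pass.

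From the CLP to F, Flt3 fell by 5.05 ± 0.43 on the log2 scale (adjusted p = 1.11e-12; 42% of genes called). The arrays did not overlap, as for 36.5% of genes. The population means of log2 signal ran, from high to low, CLP, A, B, C, E, F, D. In that order A differed from B and B from C. The CLP and A did not differ by the test, and C, E, F and D did not differ from one another (6 pairs, lowest adjusted p = 0.202; 27.5%, 32.3% and 11.5% of genes were called in E vs C, F vs C and F vs D). Over all 7 populations the moderated F-test placed Flt3 at rank 171 of 11951 genes (adjusted p = 4.90e-16; 73.3% of genes called).

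Kit was measured by a bright probe set, used here as the main one, and by a dimmer one. The main probe set in the CLP ran from 526.9 through a median of 822.9 to 1113.1 (786 ± 211, SD, n = 7). In A it ran from 84.1 through 175.3 to 599.9 (273 ± 186, SD, n = 7). A overlapped the CLP through A array 1. Kit fell by 1.60 ± 0.43 on the log2 scale (adjusted p = 0.00287), the only one of the 3 receptors called in this comparison. The second probe set fell by 1.10 ± 0.38 (adjusted p = 0.0203 over 28459 probe sets, of which 33.9% were called).

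In fraction B, Kit spread widely, from 5.4 through a median of 300.6 to 956.9 (370 ± 327, SD, n = 7). B arrays 1 and 4, at 5.4 and 60.8, were lowest, and B array 5 was highest. The second probe set ranked the same arrays lowest, at 3 and 30.7, and read 260.8 on B array 5. Kit in B differed from A by 0.02 ± 0.43 (adjusted p = 0.982), with a 95% interval from -0.84 to 0.88. From the CLP to B it fell by 1.59 ± 0.43 (adjusted p = 0.00421). Without B arrays 1 and 4 the difference from the CLP was -0.72 (adjusted p = 0.118) and that from A was 0.88 (adjusted p = 0.0368). The second probe set differed from the CLP by -0.80 ± 0.38 (adjusted p = 0.118; 24.1% of probe sets called), and by -0.13 without those arrays (adjusted p = 0.838). From A it differed by 0.30 ± 0.38 (adjusted p = 0.587; 27.1% of probe sets called), and by 0.97 without those arrays (adjusted p = 0.0237). The mean of both probe sets then differed from A by 0.93 (adjusted p = 0.00566). Mast cell and basophil markers, in which Kit is known to be high, moved on 1 array of B. The summed signal of 7 of them was 10455 on B array 5 and 510.8 to 1905.9 on the other arrays of B, and in the CLP it was 1423.1 to 19329.2. The part of such cells in the Kit signal was not tested.

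The arrays of C read 104, 132.4, 176.6, 184.3 and 172.2 for Kit, within the range of B. The difference from B was -0.53 ± 0.47 (adjusted p = 0.446), and without B arrays 1 and 4 it was -1.40 (adjusted p = 0.00403). In D the arrays read 72.7, 106.2, 42.1, 47.9 and 41.2. In E they read 38, 170.3, 47, 40.8 and 43.9, with E array 2 alone in the range of C. In F they read 19, 47.5, 67.5, 42 and 52.7. None of the steps D vs C (-1.01 ± 0.50, adjusted p = 0.154), E vs D (-0.0041, adjusted p = 0.998) and F vs E (-0.26, adjusted p = 1.00) passed. F was nonetheless below C, close to the threshold (-1.27 ± 0.50, adjusted p = 0.0488; 32.3% of genes called), and D was below B (-1.54 ± 0.47, adjusted p = 0.0103; 30.7%).

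Over the whole path Kit fell by 3.39 ± 0.47 on the log2 scale from the CLP to F (adjusted p = 1.29e-07), without overlap. Its second probe set fell by 2.75 ± 0.41 (adjusted p = 6.86e-07; 40.2% of probe sets called). Of 7 mast cell and basophil markers, 6 were called lower and 0 higher in F than in the CLP, against 26.7% and 15.2% of all genes. The part of such cells in the fall of Kit to F was not tested. The order of the Kit means was CLP, B, A, C, D, E, F. Only the CLP differed from its neighbour in that order (37.3% of genes were called in C vs A). In the F-test Kit ranked at 1808 of 11951 genes (adjusted p = 7.39e-08). Across the 41 arrays, which share populations, the log2 values of the 2 Kit probe sets correlated at r = 0.844.

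Csf1r had 3 probe sets, called here the main, the second and the third by their mean signal. In the CLP it ran from 684.2 through a median of 1414.6 to 2406.7 (1458 ± 524, SD, n = 7). In A it ran from 457.8 through 3267.9 to 26759.4 (6027 ± 9246, SD, n = 7). The value of 26759.4 came from A array 4, whereas the other 6 arrays of A read 457.8 to 4313.6. On that same array the other 2 probe sets of Csf1r read 65.1 and 60, the lowest of fraction A. A array 4 also had the highest Gapdh ratio of all arrays (33.8) and B lineage markers at 73045. A and the CLP overlapped, and Csf1r differed by 1.07 ± 0.64 (adjusted p = 0.191). Without A array 4 the difference was 0.54 (adjusted p = 0.521). The other probe sets differed by 0.41 ± 0.32 (the second, adjusted p = 0.333) and 0.23 ± 0.28 (the third, adjusted p = 0.561).

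From A to B, Csf1r fell by 3.91 ± 0.64 on the log2 scale (adjusted p = 6.82e-06). In B it ran from 1.8 through a median of 333.3 to 499 (265 ± 191, SD, n = 7), with B arrays 1 and 4 at 1.8 and 2.1. The other 5 arrays of B lay between 295.1 and 499. The ranges of A and B touched only between A array 7 and B array 3. Both dimmer probe sets fell as well, by 1.82 ± 0.32 (adjusted p = 2.14e-05) and by 1.11 ± 0.28 (adjusted p = 0.00245), where 27.1% of probe sets were called. B also lay below the CLP without overlap (-2.84 ± 0.64, adjusted p = 7.96e-04), and the dimmer probe sets were lower too (-1.41 ± 0.32, adjusted p = 8.81e-04, and -0.88 ± 0.28, adjusted p = 0.0177). Without B arrays 1 and 4 the falls from A (-2.90, adjusted p = 2.74e-04) and from the CLP (-1.83, adjusted p = 0.0269 over all probe sets) were smaller and were still called. Markers of other cells fell in the same step from A to B. Plasmacytoid dendritic cell markers summed to 18811.8 to 45482.6 in A, whereas B had 7067.1 to 9100.6, and 10 of 12 were called lower, against 14.5% of all genes. The arrays of A alone meet the filter for these 12 as well, so this count is also a description. Neutrophil and granule markers summed to 18464.4 to 47067.8 in A, whereas B had 2939.4 to 22160.9, and 5 of 12 were called lower. Of 8 monocyte and macrophage markers tested, 3 were called lower and 1 higher, the latter beside 16.9% of all genes. In the CLP the neutrophil and granule markers summed to 16474.8 to 57871.6. Of these 12 markers, 11 were called lower and 0 higher in B than in the CLP, against 19.1% and 8.81% of all genes. The part of such cells in the falls of Csf1r was not tested.

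For Csf1r in C the arrays read 958.3, 961.7, 310.4, 373.3 and 394.8, so that C arrays 1 and 2 lay above every array of B and the others within the upper part of B. The main probe set did not pass against B (1.53 ± 0.71, adjusted p = 0.114). The second rose by 0.98 ± 0.35 (adjusted p = 0.0382; 22.6% of probe sets called), and the third differed by 0.78 ± 0.31 (adjusted p = 0.0619). With the mean of the 3 probe sets in place of the brightest, Csf1r rose by 1.09 from B to C (adjusted p = 0.00702). Without B arrays 1 and 4 none of these passed: the main probe set differed by 0.52 (adjusted p = 0.621), the second by 0.66 (adjusted p = 0.205), the third by 0.80 (adjusted p = 0.0864) and the mean of the 3 by 0.66 (adjusted p = 0.0827). In D the arrays read 25.9, 115, 30.3, 97.8 and 22.4, all below C. Csf1r fell by 2.79 ± 0.76 from C to D (adjusted p = 0.00676; 29% of genes did not overlap). The third probe set also fell, by 0.96 ± 0.33 (adjusted p = 0.0355; 19.2% of probe sets called), while the second differed by -0.56 ± 0.38 (adjusted p = 0.310).

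Granule markers of myeloid cells were higher in C than in B and D. The summed signal of 12 neutrophil and granule markers, led by S100a9, S100a8 and Mpo, was 2939.4 to 22160.9 in B, 57232.3 to 81553.6 in C and 18573.1 to 25250.3 in D, and 12 of 12 were called higher in C than in B, against 14.2% of all genes, and 10 were called lower in D than in C. The summed signal of 12 monocyte and macrophage markers, led by Lyz2, Klf4 and Ms4a6c, was 1600.7 to 5592.5 in B, 9937.4 to 12255.3 in C and 7583.4 to 10719 in D. Of 8 tested, 2 were called higher and 0 lower in C than in B (14.2% and 8.75% of all genes were). In D vs C, 2 were called higher and 2 lower, beside 897 and 1647 of the 11951 genes. Lyz2, the lysozyme of myeloid cells, made up most of that sum in C and had a mean signal of 912 ± 663 (SD, n = 7) in B, which compares with 7442 ± 1655 (SD, n = 5) in C. On each array of C, 6 to 7 of the 12 monocyte and macrophage markers reached the array median. Cd14 and Adgre1 (F4/80) were among the members that did not. Both were picked after their values were seen, so they do not stand for the list. They read 2.8 to 48.2 and 45.4 to 112.4 in C. The part of myeloid cells in the Csf1r signal was not tested.

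In E, Csf1r read 2.7, 711.2, 56.7, 98.9 and 31, and in F it read 5.7, 130.7, 18, 52.1 and 1.6. E array 2 stood far above the others in Csf1r and was also the highest of its population for Flt3 (90.1) and Kit (170.3). On the same array the neutrophil and granule markers summed to 103323, against 12607.4 to 28351.9 on the other arrays of E. Neither E vs D (0.47, adjusted p = 0.897) nor F vs E (-0.89, adjusted p = 1.00) passed, and without E array 2 the first was -0.21. From the CLP to F, Csf1r fell by 4.52 ± 0.71 (adjusted p = 1.58e-06), and its dimmer probe sets fell by 1.66 ± 0.35 (adjusted p = 1.78e-04) and by 1.07 ± 0.31 (adjusted p = 0.00471). In all 3 probe sets the arrays of F and the CLP did not overlap. The order of the means was A, CLP, C, B, E, D, F, and no neighbours in it differed by the test (8.3%, 37.8% and 11.5% of genes were called in C vs CLP, E vs B and F vs D). In the F-test Csf1r ranked at 1042 of 11951 genes (adjusted p = 1.41e-09). Of 12 neutrophil and granule markers, 5 were called lower and 0 higher in F than in the CLP, against 26.7% and 15.2% of all genes. Of 8 monocyte and macrophage markers tested, 3 were called lower and 2 higher. The part of such cells in the fall of Csf1r to F was not tested.

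**Figure D2:**
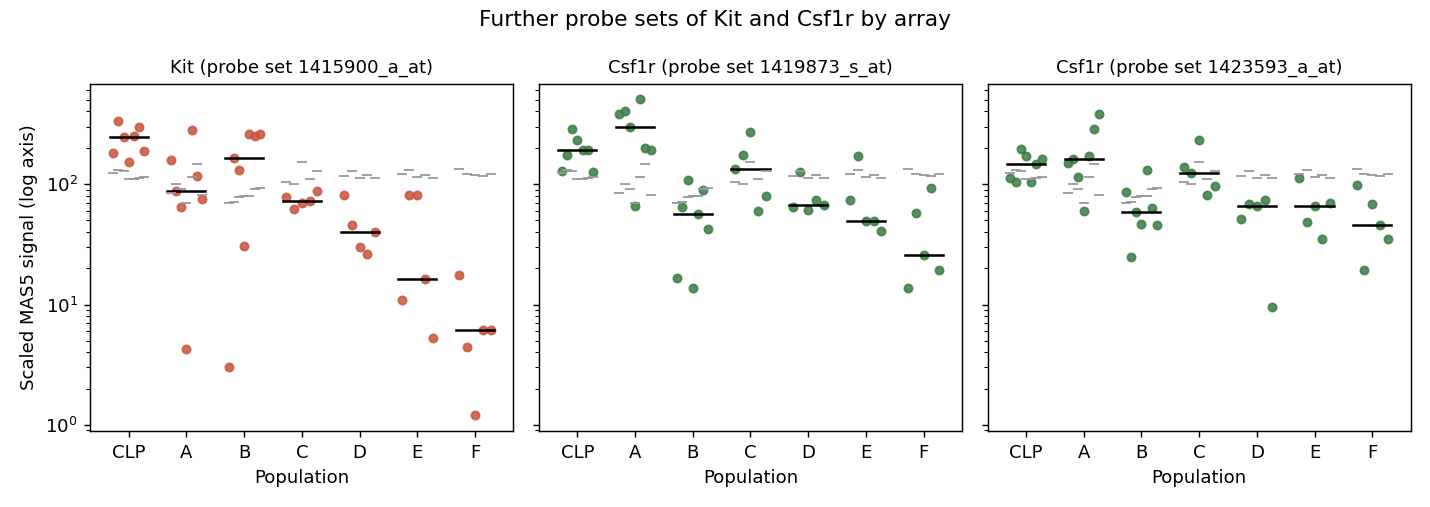
Scaled MAS5 signal (log axis) of the dimmer probe set of Kit and the 2 dimmer probe sets of Csf1r on each array, by population. Points are arrays, black bars are medians and grey ticks are array medians. The Csf1r points of A array 4 lie at 65.1 and 60, at the bottom of fraction A, whereas the brightest probe set read 26759.4 on that array.

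The 3 Csf1r probe sets agreed less well than those of Kit. Across the 41 arrays the log2 values of the brightest correlated at r = 0.749 with the second and at r = 0.517 with the third, and the dimmer pair at r = 0.638. Both dimmer sets lay near the array medians even in the CLP, with means of 190 ± 57.3 and 142 ± 36.6 (SD, n = 7). For Csf1r, the size of a difference therefore depends on the probe set, while the falls from A to B, from the CLP to B and from the CLP to F were called in all 3.

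**Figure D3:**
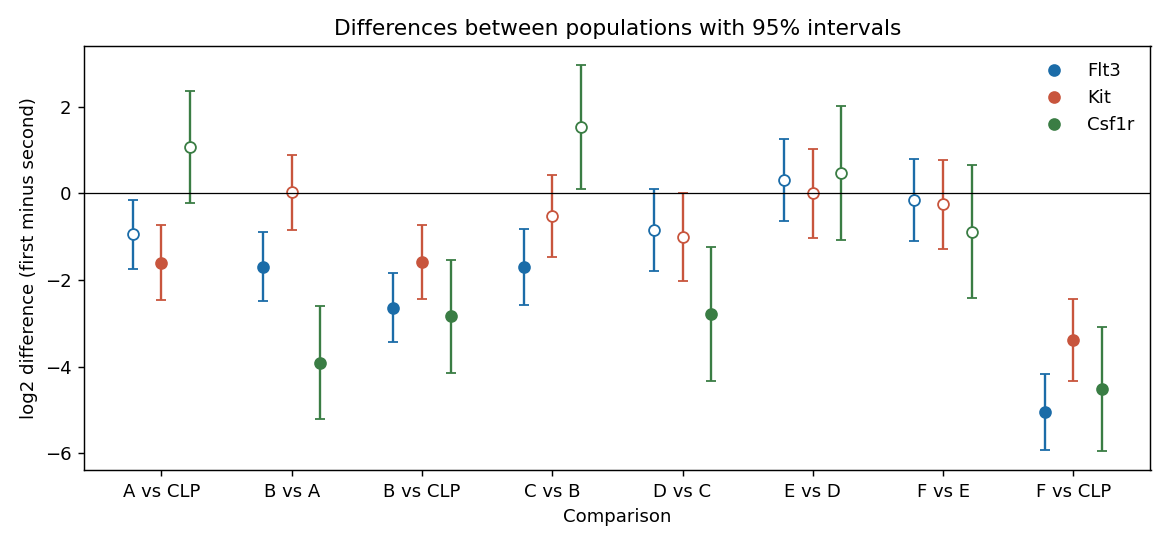
log2 differences (first minus second population) of the brightest probe set of each receptor in 8 comparisons, with 95% intervals from limma; filled points have an adjusted p under 0.05 and open points do not. All 3 receptors were lower in B and in F than in the CLP, whereas Kit in B vs A sat at 0.02.

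Whether the receptors changed by unequal amounts was tested on the log2 ratio of a pair of genes within each array, with an exact two-sided permutation test over the arrays of the 2 populations and Benjamini-Hochberg adjustment over 12 tests. The ratio of Csf1r over Kit rose by 2.67 from the CLP to A (exact p = 0.00233, adjusted p = 0.00932), fell by 3.93 from A to B (exact p = 5.83e-04, adjusted p = 0.00699) and rose by 2.06 from B to C (exact p = 0.00505, adjusted p = 0.0152). The ratio of Csf1r over Flt3 moved in the same directions, by 2.02 (exact p = 0.0111, adjusted p = 0.02), -2.22 (exact p = 0.0117, adjusted p = 0.02) and 3.24 (exact p = 0.00126, adjusted p = 0.00758). The last was the contrast of a falling Flt3 with a Csf1r that did not fall. Between the CLP and B the Csf1r over Kit ratio fell by 1.26 (exact p = 0.00641, adjusted p = 0.0154), and the Csf1r over Flt3 ratio differed by -0.20 (exact p = 0.751, adjusted p = 0.751). With the mean of the Csf1r probe sets, the ratio over Kit in B vs CLP (-0.52, adjusted p = 0.185) and that over Flt3 in B vs A (-0.59, adjusted p = 0.199) did not pass. The Csf1r over Flt3 ratio in B vs A also did not pass without A arrays 4, 6 and 7 (-1.73, adjusted p = 0.0519) or without B arrays 1 and 4 (-1.81, adjusted p = 0.0621).

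The ratio of Kit over Flt3 rose by 1.71 from A to B (exact p = 0.0157, adjusted p = 0.0236), the step in which Flt3 fell and Kit did not. It did not pass in A vs CLP (-0.65, exact p = 0.0443, adjusted p = 0.0591), B vs CLP (1.06, exact p = 0.0769, adjusted p = 0.0923) or C vs B (1.17, exact p = 0.160, adjusted p = 0.175). B array 1 bore on this pair: Flt3 read 354 and Kit 5.4 there. Without it the ratio in B vs CLP was 1.54 (adjusted p = 0.00350). Without A arrays 4, 6 and 7 the rise from A to B was 1.70 and did not pass (adjusted p = 0.0909).

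**Figure D4:**
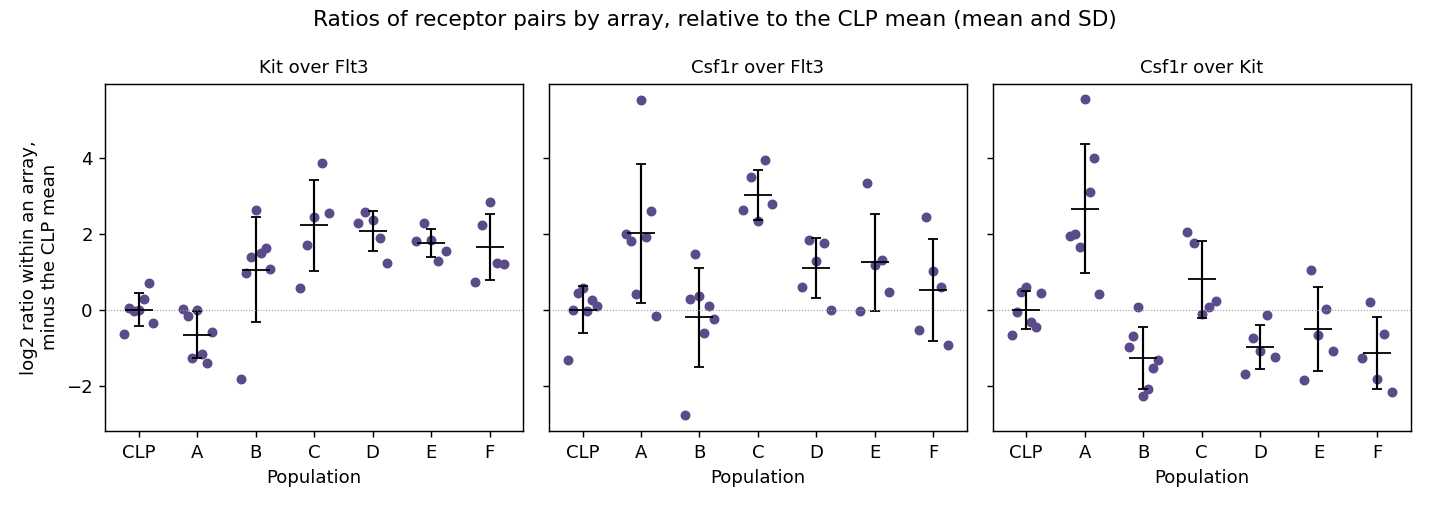
log2 ratio of the brightest probe sets of each receptor pair within an array, minus the mean of the CLP, by population; points are arrays, and horizontal marks with bars are the mean and SD. Csf1r over Kit rose by 2.67 from the CLP to A and fell by 3.93 from A to B.

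Over the 41 arrays, the log2 values of Flt3 and Kit correlated at r = 0.807, those of Flt3 and Csf1r at r = 0.768 and those of Kit and Csf1r at r = 0.720. Arrays share their population, so these values describe the common course and carry no test. Many genes followed each receptor more closely: Kit stood at place 78 and Csf1r at place 152 among 11950 other genes ranked by correlation with Flt3. The 5 genes most like Flt3 were Emb (r = 0.922), Cd34 (0.911), Mn1 (0.910), 9030619P08Rik (0.905) and Bex6 (0.903). Cd34, a sialomucin of progenitors, had a mean signal of 1399 in the CLP, against 511 in A, 66.7 in B and 13.3 in F. Those most like Kit were Tnfsf11 (0.919), Adgrl4 (0.883), Adgrg3 (0.875), Scamp1 (0.874) and Egfl7 (0.865). Adgrg3, an adhesion G protein-coupled receptor, went from a mean of 3436 in the CLP to 950.2 in A, 1569 in B and 13.6 in F. Those most like Csf1r were Fyb (0.899), Alox5ap (0.883), Gsr (0.880), Apobr (0.878) and Ppm1h (0.878). Alox5ap, the activating protein of 5-lipoxygenase, went from a mean of 1454.5 in the CLP to 1989 in A, 661 in B and 124 in D.

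Among the ligands, Csf1, the growth factor bound by Csf1r, was the only one tested. Its mean signal in the CLP was 424 ± 166 (SD, n = 7). Fractions A and B had means of 110 ± 97.7 and 317 ± 289 (SD, n = 7 each), and F had 55.2 ± 62.8 (SD, n = 5). Csf1 fell by 1.98 ± 0.47 from the CLP to A (adjusted p = 8.10e-04) and by 2.59 ± 0.51 from the CLP to F (adjusted p = 6.19e-05). The first did not pass without A arrays 4, 6 and 7 (-1.05, adjusted p = 0.0939). Kitl, which encodes the Kit ligand, and Il34, the second ligand of Csf1r, were too dim to be tested, with means of 20.7 to 60.7 and 4.28 to 26.8 over the populations. The annotation used here did not name a probe set for Flt3l.

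Of the other class III receptors, Pdgfrb, a receptor for platelet-derived growth factor, ran in the CLP from 465.3 to 1044.2 (696 ± 192, SD, n = 7). It fell by 2.57 ± 0.37 to A (adjusted p = 5.41e-07), by 3.24 ± 0.37 from the CLP to B (adjusted p = 8.89e-09) and by 4.14 ± 0.40 from the CLP to F (adjusted p = 3.24e-11), where its mean was 8.5 ± 5.52 (SD, n = 5). In B vs A it differed by -0.67 ± 0.37 (adjusted p = 0.163), and 1 array decided that call: without A array 4 the fall passed (-0.96, adjusted p = 0.0329). It also passed without A arrays 4, 6 and 7 (-1.72, adjusted p = 2.15e-05) and when arrays were weighted (-1.24, adjusted p = 0.00183). With only A and B in the model, the brightest probe set was chosen again from those arrays. Another probe set of Pdgfrb was then used, and it differed by 0.057 (adjusted p = 0.955). Pdgfra was too dim to be tested, with means of 15.7 to 56 over the populations. The 4 tested class III receptors, 3 of them the receptors chosen here, were each called lower in B and in F than in the CLP. Of all genes, 19.1% and 26.7% were. For each of the 4, the CLP arrays alone meet the filter of 5 arrays, so this count does not test a shared fall. Kit in B lost its call without B arrays 1 and 4.

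The other cytokine receptors of progenitors had 13 tested members. In A, 4 were called higher and 3 lower than in the CLP, against 11.5% and 25.6% of all genes, with a median of -0.19 against -0.23 over all genes. Il2rb, the shared beta chain of the interleukin 2 and 15 receptors, rose by 3.76 ± 0.38 (adjusted p = 2.21e-10). It is also counted among the natural killer markers above. Csf3r, the receptor for granulocyte colony-stimulating factor, fell by 1.42 ± 0.33 (adjusted p = 8.76e-04). It is also counted among the neutrophil and granule markers. In B, 0 rose and 5 fell against the CLP (8.81% and 19.1% of all genes did; median -0.47 against -0.20), among them Il6st, the signal-transducing chain of interleukin 6 receptors (-1.91 ± 0.23, adjusted p = 1.97e-08). Il7r, the interleukin 7 receptor on which mouse B cell progenitors depend, took another course from the class III receptors. Its means were 8529 ± 1221 and 8347 ± 1149 (SD, n = 7 each) in the CLP and B. D had 13085 ± 1008 (SD, n = 5), where it had risen from C by 0.70 ± 0.18 (adjusted p = 0.00440). It fell by 2.48 ± 0.17 from the CLP to F (adjusted p = 1.14e-15).

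Signalling partners were divided in direction. Of 13 tested adaptors, 3 were higher and 3 lower in F than in the CLP, against 15.2% and 26.7% of all genes (median -0.17 against -0.15). Stap1, an adaptor of Kit and of the B cell receptor, rose by 1.45 ± 0.19 (adjusted p = 4.60e-08), and Grb2, which links receptors to Ras, rose by 1.29 ± 0.23 (adjusted p = 1.31e-05). Gab2, a docking protein for PI3K, fell by 2.33 ± 0.35 (adjusted p = 5.25e-07). Of 7 cytoplasmic kinases, 1 was higher and 2 lower in F (median -0.07). Tec rose by 1.38 ± 0.20 (adjusted p = 3.59e-07), and Fyn, a Src family kinase, fell by 1.96 ± 0.17 (adjusted p = 1.03e-12). The myeloid Src family kinase Fgr rose by 1.42 ± 0.32 from the CLP to A (adjusted p = 5.46e-04), fell by 2.94 ± 0.32 from A to B (adjusted p = 6.37e-10), rose by 1.71 ± 0.35 from B to C (adjusted p = 3.41e-04) and fell by 2.11 ± 0.38 from C to D (adjusted p = 7.26e-05). Of 13 PI3K, STAT and phospholipase effectors, 1 was higher and 4 lower in F (median -0.57), and Plcg1, a phospholipase C, fell by 2.35 ± 0.24 (adjusted p = 6.55e-11).

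Of 20 negative regulators tested, 7 were higher and 7 lower in F than in the CLP, against 15.2% and 26.7% of all genes (median -0.39 against -0.15). The phosphatases Ptprj (2.69 ± 0.31, adjusted p = 2.79e-09) and Ptpn6 (2.06 ± 0.27, adjusted p = 5.07e-08) rose. Socs2, a feedback inhibitor of cytokine receptors, fell by 3.13 ± 0.42 (adjusted p = 8.30e-08), and Ubash3a by 1.96 ± 0.35 (adjusted p = 1.79e-05). From B to C, 6 were called higher and 0 lower (14.2% and 8.75% of all genes were; median 0.51 against 0.19), led by the ubiquitin ligase Cblb, which rose by 2.12 ± 0.26 (adjusted p = 6.12e-08). Between the CLP and B, 0 rose and 5 fell (8.81% and 19.1% of all genes did; median -0.31 against -0.20), among them the adaptors Dok2 (-1.47 ± 0.27, adjusted p = 7.11e-05) and Sla (-1.37 ± 0.24, adjusted p = 2.43e-05).

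**Figure D5:**
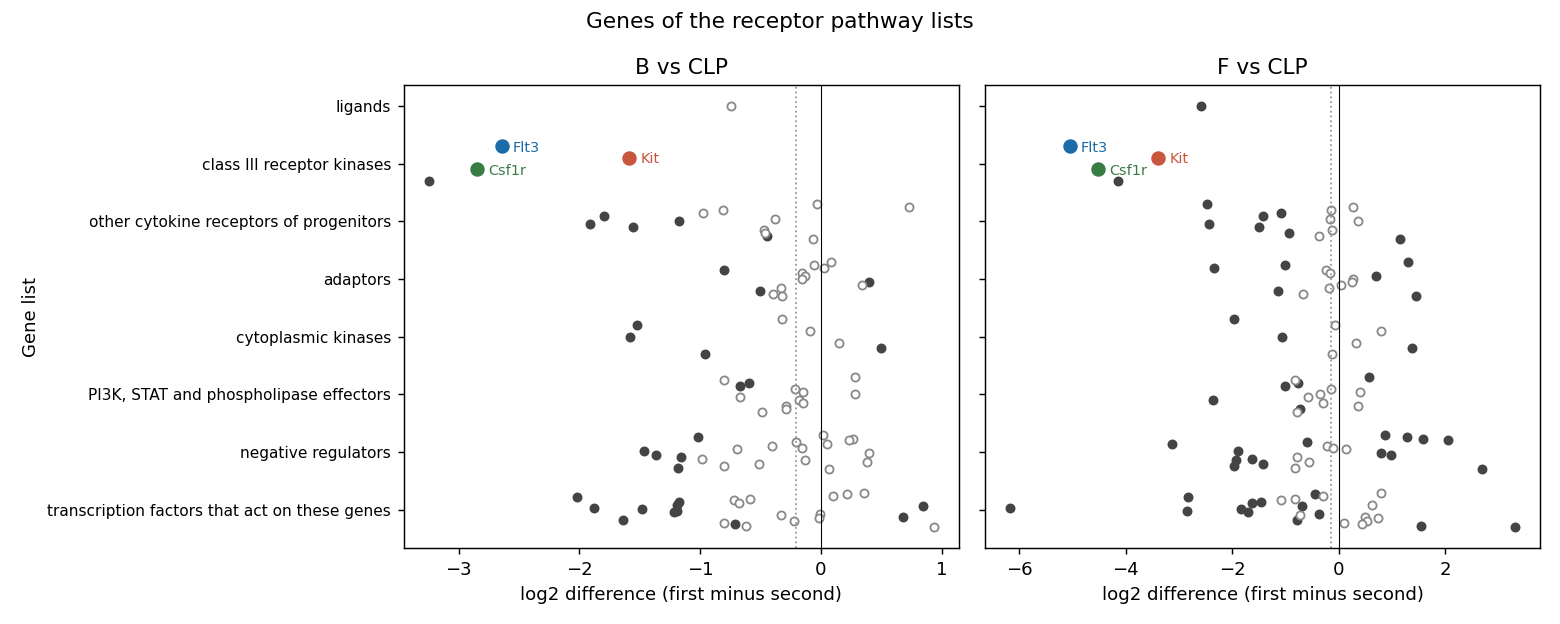
log2 differences of the tested genes of 8 receptor pathway lists in B vs CLP and F vs CLP; filled points have an adjusted p under 0.05, coloured points are the 3 receptors, and the dotted line is the median of all genes tested. The 4 class III receptors lie to the left of that median in both panels, with Flt3 at -2.64 and -5.05.

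All 24 transcription factors listed as acting on the receptor genes were tested. In A, 3 were higher and 10 lower than in the CLP, against 11.5% and 25.6% of all genes (median -0.62 against -0.23). Ebf1 and Pax5, which drive commitment to the B lineage, fell by 4.34 ± 0.26 (adjusted p = 1.68e-17) and 3.40 ± 0.29 (adjusted p = 1.99e-12), and Irf8, a factor of monocytes, dendritic cells and B cells, rose by 1.17 ± 0.25 (adjusted p = 2.25e-04). From A to B, 5 rose and 5 fell (16.9% and 14.5% of all genes did; median 0.06 against 0.02): Ebf1 rose by 5.02 ± 0.26 (adjusted p = 7.75e-20) and Pax5 by 3.39 ± 0.29 (adjusted p = 9.17e-13), while Irf8 fell by 2.81 ± 0.25 (adjusted p = 1.70e-12). These shifts in A stand beside the natural killer markers given above and beside 12 plasmacytoid dendritic cell markers, led by Tcf4, Irf8 and Spib, whose sum was 18811.8 to 45482.6 in A, whereas the CLP had 12851.4 to 19166.7. Irf8 is counted in both lists.

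Of the 24 factors, 2 rose and 9 fell from the CLP to B, against 8.81% and 19.1% of all genes (median -0.65 against -0.20). Cebpa, a driver of the granulocyte and monocyte lineages, fell by 2.02 ± 0.44 (adjusted p = 4.46e-04), and Hoxa9, a homeobox factor of progenitors, fell by 1.88 ± 0.49 (adjusted p = 0.00296). Myb, a factor of progenitor proliferation, and Ebf1 were the ones that rose, by 0.85 ± 0.14 (adjusted p = 1.36e-05) and 0.68 ± 0.26 (adjusted p = 0.0401). With quantile normalization neither passed (adjusted p = 0.163 and 0.342), and Ebf1 also did not without B arrays 1 and 4 (0.64, adjusted p = 0.105). The call of Ebf1 was also lost with a pseudocount of 1 (adjusted p = 0.0944), without the filter (0.0532) and with eBayes without trend and robust (0.0521). Leaving out certain single arrays did the same, CLP array 3 among them (adjusted p = 0.0977). Pax5 was not called higher in B than in the CLP. Its part in the falls of Flt3 and Csf1r was not tested. From the CLP to F, 2 rose and 11 fell, against 15.2% and 26.7% of all genes (median -0.57 against -0.15). Hoxa9 fell by 6.17 ± 0.53 (adjusted p = 1.25e-12) and Etv6, an ETS repressor, by 2.85 ± 0.26 (adjusted p = 4.54e-12), while Egr2 rose by 3.31 ± 0.58 (adjusted p = 1.07e-05) and Fli1, another ETS factor, by 1.54 ± 0.32 (adjusted p = 1.46e-04).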

How the data were processed

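Total RNA of flow-sorted populations was extracted with PicoPure, amplified with the NuGEN Ovation Pico system and hybridised to Affymetrix arrays, per the labels. The authors deposited intensity values computed with MAS5, as the submitters' processing notes state without a version. Trimming 2% of probe sets at each end left every array with a mean of 500. The number of arrays limits the precision, and detection calls were not used here. The titles gave the populations.

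The 45101 probe sets included 64 controls. The platform annotation named 34945 with 1 gene, 932 with several, and 9160 were not listed. For each of 18193 genes its brightest probe set was used, and every receptor probe set was also tested alone (28459 probe sets). The 11951 genes that reached the array median 5 times or more were tested on log2(signal + 32) with limma 3.58.1 in R 4.3.3 (statmod 1.5.0; a moderated fit with trended, robust eBayes) over all 41 arrays with 7 group means. Benjamini-Hochberg adjustment ran over all genes in each comparison, at 0.05. Pair ratios used exact permutation tests. Comparisons with a shared population are given side by side. The method was tested on simulated data: for B vs CLP with 11951 genes, it recovered 5, 30, 49 and 50 of 50 genes changed by log2 0.5, 1, 2 and 3. The simulated noise was normal, with the same spread of a gene in every population. The real spread was unequal, with an SD of log2 Flt3 of 0.25 in the CLP and 1.47 in B. The simulation therefore does not show how the fit behaves under unequal spread.

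The receptors, the 8 pathway lists and the 12 marker lists were chosen with earlier results of these data known. Of their 227 symbols, 23 were not named by the annotation. Genes named are the receptors, the 5 most correlated with each, all ligands and class III receptors, up to 2 called genes of a list in each direction, and the 3 brightest markers of a list; further markers (Cd14, Adgre1) and Il7r were named after their values were seen. Alternatives were another pseudocount, filter, scaling, probe set rule, replicate block, fit or array weights, and each array left out; leaving out A arrays 4, 6 and 7 or B arrays 1 and 4 was chosen after seeing the data. Promoter windows came from RefSeq for GRCm38.p6 and gene names from the platform annotation; the authors' build is not stated in these sources.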

Additional observations from a re-analysis of the deposited data

Results flagged for a closer look

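Each probe set was checked in each population for an array far from the rest (Dixon's criterion at 95%), which chance meets in about 1 in 20 groups; 4 of 42 groups met it. Flt3 read 11.7 on B array 4, below the other 6 arrays. Kit (its bright probe set) read 170.3 on E array 2, above the other 4. The second probe set of Csf1r read 125.7 on D array 2, above the rest, and the third read 9.5 on D array 5, below the rest.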

How the results depend on the processing

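In the gene values, under every alternative run, the falls of Flt3 and Csf1r from the CLP to B, of all 3 receptors from the CLP to F, of Kit from the CLP to A, of Flt3 from B to C, of Flt3 and Csf1r from A to B and of Csf1r from C to D kept their direction and their call. Kit from the CLP to B lost its call without B arrays 1 and 4 (-0.72). The other changed receptor results and the reversed directions of other genes follow. Where no cause is given, the cause was not tested. Among 3004 planned results of other genes (a gene in a comparison under a setting), 151 lost their call and 5 gained one. Most of these are not listed here. With a pseudocount of 1, Kit in B vs A was -0.29, Pdgfrb in C vs B 0.50, and Kit over Flt3 in B vs A 1.70 without a call. With a pseudocount 4 times as large as 32, Flt3 in A vs CLP was called (-0.89), Kit over Flt3 in B vs CLP was called (1.10), Csf1r over Flt3 in B vs CLP was 0.083 and Kit in E vs D 0.016. With quantile normalization, Csf1 in C vs B was -0.044 and Myb in C vs B 0.064. With median centring, Csf1 in C vs B was -0.17. With each gene's probe sets averaged, Csf1r in C vs B (1.09) and Kit over Flt3 in B vs CLP (1.45) were called, Csf1r over Flt3 in B vs A (-0.59) and Csf1r over Kit in B vs CLP (-0.52) were not, and Csf1r over Flt3 in B vs CLP was 0.93. With array weights, Kit in C vs B (-0.93), Flt3 in D vs C (-0.81) and Kit in D vs C (-1.02) were called, and Crkl in A vs CLP was 0.15. In fits of only the populations compared, Flt3 in A vs CLP was called (-0.95). There the brightest probe set was chosen again from the arrays kept. Pdgfrb in B vs A (0.057) and Ebf1 in D vs C (-0.015) came from another probe set of the gene.

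Without A arrays 4, 6 and 7, Kit in B vs A was -0.29, Kit over Flt3 (1.70) and Csf1r over Flt3 (-1.73) in B vs A lost their calls, and Crkl in A vs CLP was 0.27. Without B arrays 1 and 4, Kit in B vs A (0.88), Kit in C vs B (-1.40) and Kit over Flt3 in B vs CLP (1.32) were called, Csf1r over Flt3 in B vs A (-1.81) was not, Csf1r over Flt3 in B vs CLP was 0.20 and Csf1 in C vs B -0.31. With 1 array left out in turn, Flt3 in A vs CLP ran from -1.05 to -0.88 (called without A array 1 or 2), Kit in B vs A from -0.30 to 0.49, Kit in E vs D from -0.29 to 0.15, Kit in F vs E from -0.36 to 0.031, Flt3 in F vs E from -0.31 to 0.042 and Csf1r in E vs D from -0.21 to 0.89. Kit over Flt3 ran from -0.77 to -0.53 in A vs CLP (called without CLP array 1, A array 1 or A array 4) and from 0.79 to 1.54 in B vs CLP. Csf1r over Flt3 in B vs CLP ran from -0.48 to 0.23, Csf1 in C vs B from -0.19 to 0.57 and Pdgfrb in C vs B from -0.22 to 0.15.

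No pairing of arrays by replicate number was seen, though this check cannot exclude one. Of 111 pairs with the same number, 9 had deviations correlated above 0.1, against 45 of 606 pairs with different numbers. Of 41 arrays, 9 correlated best with one of their own number. With the replicate number as a block, Flt3 in A vs CLP was called (-0.95, adjusted p = 0.0441), and no other receptor call changed. The genes called in A vs CLP (4435), B vs A (3745), D vs C (2544), E vs D (969) and F vs E (56) were 2471, 1375, 4800, 2961 and 641 in fits of only the populations compared. With array weights B vs CLP had 5149 in place of 3333, C vs B 4615 in place of 2739, D vs C 5525, E vs D 3142 and F vs E 470. Without E array 4, F array 3 or F array 5, F vs E had 33, 36 and 37. Median centring moved the share of called genes that were higher from 31% to 53.4% in A vs CLP, from 53.8% to 72.1% in B vs A, from 31.6% to 74.7% in B vs CLP and from 61.8% to 19.3% in C vs B. Signals at or below the array medians, as for Flt3 from D onward, limit what can be read from later steps.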
